A study of Mus musculus with 8 samples.

Results

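Monocytes and macrophages are myeloid cells that arise from bone marrow progenitors, and a set of 10 genes used to mark them was followed here in mouse leukaemia cells: Csf1r, Cd14, Adgre1, Cd68, Lyz2, Ctss, Mpeg1, Cx3cr1, Ccr2 and Fn1. The genes were chosen by name, as known monocyte and macrophage genes, with earlier results of these data known. All 10 were found among the 47069 gene rows of the count files. Cx3cr1 had too few counts to be tested, which left 9 of the 10 among 14263 tested genes.

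RNA sequencing was done on GFP-positive cells sorted from mice with acute myeloid leukaemia driven by the fusion oncogene MLL-AF9. All cells carried TetO-Klf4, which expresses the transcription factor KLF4 under doxycycline. The tissue is labelled bone marrow and the strain C57BL/7. The groups were 0h, 6h, 12h and 24h with 2 libraries each, and the labels say neither from which event the hours count nor the age or number of mice, nor what drives the doxycycline-responsive activator. MLL-AF9 and the transgene are thus shared by every group, 0h included, and cells with doxycycline but no Klf4 transgene were not analysed here.

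Csf1r encodes the receptor for the growth factor CSF1, on which monocytes and macrophages depend for survival and maturation. Monocytes use the chemokine receptor CCR2 to leave the marrow, patrolling monocytes carry CX3CR1, and mouse macrophages carry F4/80 (from Adgre1) together with lysosomal and pore-forming proteins that act on engulfed material. Leukaemia cells of the MLL-AF9 type resemble granulocyte and monocyte progenitors, so part of this set is active in them, and KLF4 is itself a known factor of monocyte differentiation.

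Gene counts came to between 20394546 and 26041347 per library, so that 0 counts in 1 library allows a level of up to 0.115 to 0.147 CPM of its unscaled total, for counting error only. Levels elsewhere are CPM, counts relative to the library total after TMM scaling. Klf4, the induced gene, was at 2.71 and 4.42 CPM in the 0h libraries and between 76.8 and 152 CPM in the 6 later ones. All 14 genes of an MLL-AF9 leukaemia list were tested, with 2 called higher and 9 lower at 24h against 0h, where 26.1% of all tested genes were called higher and 24.8% lower (Cd34, a stem and progenitor antigen, had a log2 fold change of -1.07), and their summed level was 3462 to 3520 CPM at 24h, against 4094 to 4123 CPM at 0h. The share of fragments outside any gene feature was 9.04% and 9.27% in the 24h libraries, against 5.70% and 5.25% in the 0h libraries. The labels do not tie replicates to separate mice, so the spread behind every p-value is that of these libraries alone and may be technical. In such bulk samples, fewer cells of a type and less RNA per cell cannot be told apart.

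The 10 genes did not move as 1 block. At 24h against 0h, Fn1, Cd68, Ctss and Cd14 rose, Adgre1, Mpeg1, Ccr2 and Lyz2 fell (Lyz2 not under a GC and length correction, where it was at 0.028), Csf1r was not called and Cx3cr1 was not tested. That is 4 of 9 higher and 4 of 9 lower, where 26.1% of all tested genes were called higher, 24.8% lower and 50.9% in either direction. The Mpeg1 call was at the edge of the threshold (adjusted p = 0.048), and was lost by DESeq2 and with the GC and length correction. The libraries did not overlap for 4 of the 10 genes upward and 4 downward, beside 38.9% and 36% of all tested genes. The median log2 fold change of the 9 genes was 0.23, beside 0.02 over all tested genes. At 6h against 0h, 3 of 9 were called lower (Ccr2, Lyz2 and Adgre1; 8.58% of all tested genes were called lower) and 0 were called higher, with 0 higher at an unadjusted p under 0.05 and 0 by DESeq2 (9.74% of all tested genes were called higher and 18.3% either way). Without overlap there were 1 gene upward and 6 downward of 10, beside 27.3% and 29% of all tested genes. At 12h against 0h, 2 of 9 were higher (Cd68 and Cd14; 22.1% of all tested genes) and 5 lower (Csf1r, Mpeg1, Ccr2, Adgre1 and Lyz2; 21.6% of all), where 43.7% of all tested genes were called either way. Without overlap there were 4 upward and 6 downward of 10, beside 35.9% and 35.3% of all tested genes. Without 0h replicate 1, the calls at 12h came to 4, all lower. The medians were -0.24 at 6h and -0.31 at 12h, beside -0.00 and 0.00 over all tested genes. Calls here and later are from edgeR's quasi-likelihood test at a Benjamini-Hochberg adjusted p under 0.05 over all tested genes, and the errors of log2 fold changes are SEs derived from its F statistic, which are too narrow for genes with few counts. These comparisons share the 0h libraries, so they are not independent of each other.

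**Figure D1:**
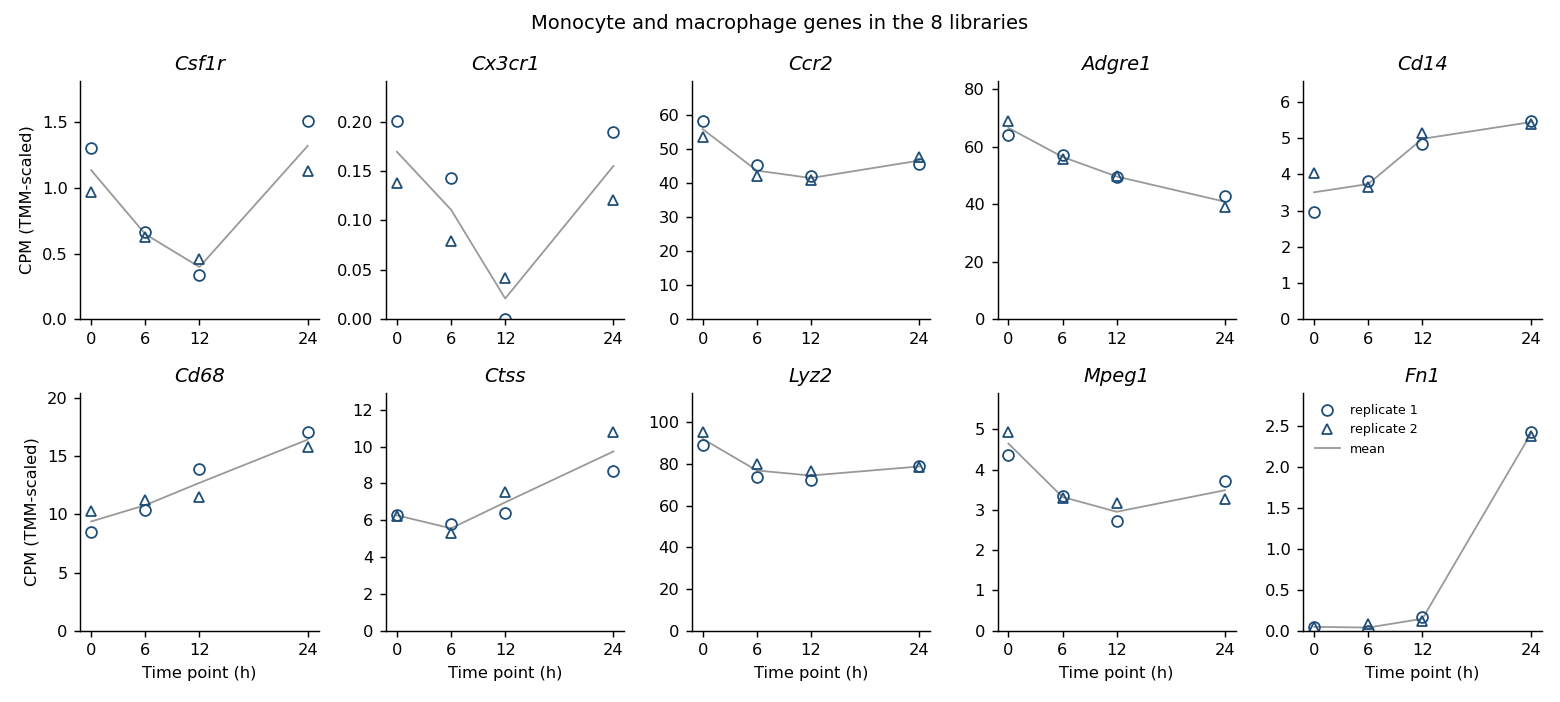
CPM (y axis, TMM-scaled, from 0, with its own scale in each panel) of the 10 genes against the time point in hours, with replicates 1 and 2 as open symbols and their mean as a line. Cd14, Cd68, Ctss and Fn1 end above both 0h libraries, and Adgre1, Lyz2 (with no GC and length correction), Mpeg1 and Ccr2 end below them. The means of Csf1r, Cx3cr1, Lyz2, Mpeg1 and Ccr2 are lowest at 12h.

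Per length of exon, the levels of the 10 genes spanned several orders of magnitude, and the order changed with time. On the RPKM scale (CPM per kilobase of exon), Lyz2 led at 24h with 59.8 ± 0.207 (SD, n = 2, as for the other levels here), against 69.9 ± 3.34 at 0h. Adgre1 and Cd68 followed at 24h with 12.6 ± 0.806 and 13.1 ± 0.699 RPKM, and their libraries overlapped. At 0h these 2 genes had stood apart, Adgre1 at 20.5 ± 1.09 RPKM and Cd68 at 7.48 ± 1.02 RPKM. Next came Ctss and Ccr2, which overlapped at 24h (7.17 ± 1.08 and 6.88 ± 0.196 RPKM) but not at 0h (4.62 ± 0.0106 and 8.25 ± 0.511 RPKM), where Ccr2 in turn overlapped with Cd68. Cd14 was at 3.14 ± 0.0319 RPKM at 24h, against 2.02 ± 0.443 RPKM at 0h, and Mpeg1 at 0.805 ± 0.0716 RPKM, against 1.07 ± 0.0903 RPKM. The lowest levels at 24h were those of Csf1r (0.229 ± 0.0469 RPKM), Fn1 (0.205 ± 0.00244 RPKM, within the range of the Csf1r libraries) and Cx3cr1 (0.0344 ± 0.0107 RPKM). Summed over the 10 genes, the level was 205 ± 1.69 CPM at 24h and 239 ± 6.61 CPM at 0h, a sum that Lyz2, Adgre1 and Ccr2 dominate.

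Sequence before the transcription start was available from RefSeq (build GRCm38.p6) for 6 of the 10 genes, Ctss, Cd68, Lyz2, Ccr2, Mpeg1 and Cx3cr1. The 250 bases before the start are shown for a pair that rose by 24h (Cd68 and Ctss) and a pair that fell (Lyz2 and Ccr2), 5′ to 3′ on the strand of the gene. Capitals mark CACCC, a motif bound by KLF proteins, and GAGGAA, a core motif of the macrophage factor PU.1, on either strand (reverse complements GGGTG and TTCCTC).
Cd68, chr11:69666171-69666420, minus strand: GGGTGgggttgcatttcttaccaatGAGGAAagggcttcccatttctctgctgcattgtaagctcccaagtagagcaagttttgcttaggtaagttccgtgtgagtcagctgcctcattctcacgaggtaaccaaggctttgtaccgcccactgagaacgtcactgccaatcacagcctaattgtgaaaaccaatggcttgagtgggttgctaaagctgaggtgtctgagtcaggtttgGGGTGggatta
Ctss, chr3:95526536-95526785, plus strand: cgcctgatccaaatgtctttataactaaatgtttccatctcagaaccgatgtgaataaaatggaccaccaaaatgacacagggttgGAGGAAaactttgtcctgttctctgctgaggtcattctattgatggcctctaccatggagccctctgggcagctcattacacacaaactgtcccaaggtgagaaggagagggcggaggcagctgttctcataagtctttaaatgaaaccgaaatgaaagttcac
Lyz2, chr10:117282273-117282522, minus strand: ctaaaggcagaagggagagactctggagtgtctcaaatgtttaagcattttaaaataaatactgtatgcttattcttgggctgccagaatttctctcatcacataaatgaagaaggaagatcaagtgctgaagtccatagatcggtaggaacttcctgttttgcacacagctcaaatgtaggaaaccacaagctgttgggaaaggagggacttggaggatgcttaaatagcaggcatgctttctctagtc
Ccr2, chr9:124101933-124102182, plus strand: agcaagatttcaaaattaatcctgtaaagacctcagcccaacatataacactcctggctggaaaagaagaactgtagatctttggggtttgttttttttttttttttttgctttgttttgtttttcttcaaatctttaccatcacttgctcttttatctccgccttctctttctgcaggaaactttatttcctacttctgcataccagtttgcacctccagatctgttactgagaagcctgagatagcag
The Cd68 window held 2 CACCC matches, both on the reverse strand and beginning 250 and 11 bases before the start, and 1 GAGGAA match at 225 bases. In the Ctss window there was 1 GAGGAA match, starting 164 bases before the start, and 0 CACCC matches. Neither motif was found in the windows of Lyz2 and Ccr2, nor in that of Mpeg1, and Cx3cr1 had 1 CACCC match. All windows end at RefSeq starts, which can differ from those of GENCODE. By the GENCODE spans given below, the Ccr2 window lies mostly inside its gene, the Lyz2 window partly and the Cx3cr1 window wholly. Of 32817 promoter windows of this length, 52.0% held CACCC and 23.3% held GAGGAA, and adjoining matches of the pair can share an end base. A match of such short letters is a description only.

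Csf1r (ENSMUSG00000024621; build mm10, chromosome 18, 61100598 to 61132149, plus strand) had a low RNA level, with 26 and 21 counts (0h), 14 and 16 (6h), 8 and 11 (12h), then 40 and 28 (24h). In CPM these were 1.31 and 0.966 (0h), 0.668 and 0.629 (6h), 0.336 and 0.459 (12h), then 1.51 and 1.13 (24h). Both 12h libraries lay below all the others, and the 24h libraries overlapped with those at 0h. Its log2 fold change at 12h against 0h was -1.49 ± 0.42 (adjusted p = 0.0038), and the ratio of summed counts was 0.353 with a 95% counting interval of 0.195 to 0.613. At 24h against 12h it rose by 1.72 ± 0.39 (adjusted p = 0.0043), a ratio of 3.34 with an interval of 1.98 to 5.88, while at 24h against 0h the value was 0.23 ± 0.33 (adjusted p = 0.59). The 12h call was lost without 0h replicate 1 (adjusted p = 0.056) and the 24h against 12h call without 12h replicate 1 or 24h replicate 1 (adjusted p = 0.095 and 0.074). Of its 5774 exonic bases, 873 also belong to Hmgxb3 on the opposite strand, a gene at 58.4 and 57.3 CPM at 24h, against 66.5 and 64.9 CPM at 0h, and the strand setting of the counting is not given in the sources used here.

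The chemokine receptors CCR2 and CX3CR1 mark classical and patrolling monocytes. Ccr2 (ENSMUSG00000049103; chromosome 9, 124101950 to 124113557, plus strand) was well expressed, at 58.2 and 53.3 CPM (0h), 45.3 and 41.9 (6h), 42.1 and 40.7 (12h), then 45.6 and 47.5 (24h). The 6 later libraries all lay below both 0h libraries. Most of the fall was present at 6h, with a log2 fold change against 0h of -0.36 ± 0.06 at 6h, -0.43 ± 0.06 at 12h and -0.26 ± 0.06 at 24h (adjusted p = 3.8e-05, 5.2e-07 and 0.00043). The upturn at 24h against 12h, 0.17 ± 0.06, was not called (adjusted p = 0.099). Cx3cr1 (ENSMUSG00000052336; chromosome 9, 119901616 to 120069879, minus strand) had 4 and 3 counts (0h), 3 and 2 (6h), 0 and 1 (12h), then 5 and 3 (24h). Counts this low are close to what 0 counts allow. The ratio of its summed counts at 24h against 0h was 0.929, with a 95% counting interval of 0.294 to 3.01, and at 12h against 0h it was 0.125 (0.00277 to 0.970) from 1 count, so no change between 24h and 0h was detectable at this depth.

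Adgre1 (ENSMUSG00000004730; chromosome 17, 57358691 to 57483527, plus strand) encodes F4/80, an adhesion-type surface receptor used as the standard antigen of mouse macrophages. Its level was 64.0 and 69.0 CPM (0h), 57.1 and 55.7 (6h), 49.5 and 49.6 (12h), then 42.7 and 39.0 (24h). Each time point lay wholly below the one before. The log2 fold change against 0h was -0.24 ± 0.06 at 6h (adjusted p = 0.0025), -0.42 ± 0.06 at 12h (adjusted p = 2.2e-07) and -0.70 ± 0.06 at 24h (adjusted p = 1.8e-12), which is 1.63-fold lower. The steps were called as well, -0.19 ± 0.06 at 12h against 6h (adjusted p = 0.021) and -0.28 ± 0.06 at 24h against 12h (adjusted p = 0.0021). Of the 9 tested genes it was the only one called at 12h against 6h, where 9.78% of all tested genes were called lower and 20.7% either way, and 0 of the 9 were called higher (3 at an unadjusted p under 0.05, 0 by DESeq2; 10.9% of all). Libraries at 12h and 6h did not overlap for 4 of 10 genes upward and 4 downward, beside 29.5% and 28.8% of all tested genes. The call at 6h was lost without 0h replicate 2 (adjusted p = 0.11) and that at 24h against 12h without 24h replicate 2 (adjusted p = 0.085). At 12h against 6h it was lost on leaving out replicate 1 of 6h or either replicate of 12h (adjusted p = 0.072, 0.10 and 0.12), by DESeq2 (0.097) with library totals (0.063) and with a GC and length correction (0.053).

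Cd14 (ENSMUSG00000051439; chromosome 18, 36725067 to 36726798, minus strand) encodes the surface protein that hands bacterial lipopolysaccharide to the TLR4 and MD-2 receptor complex. It stood at 2.96 and 4.05 CPM (0h), 3.82 and 3.66 (6h), 4.83 and 5.14 (12h), then 5.48 and 5.41 (24h). The 12h and 24h libraries lay above the 4 earlier ones, while 6h lay within the 0h range. It rose by 0.50 ± 0.17 on the log2 scale at 12h against 0h (adjusted p = 0.018) and by 0.63 ± 0.17 at 24h against 0h (adjusted p = 0.0021). The lower 0h library bears on both calls, since without 0h replicate 1 the adjusted p was 0.27 at 12h and 0.081 at 24h, and without 12h replicate 2 it was 0.096 at 12h. DESeq2 gave an adjusted p of 0.087 at 12h.

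Cd68 (ENSMUSG00000018774; chromosome 11, 69664213 to 69666153, minus strand), the gene of macrosialin, a glycoprotein of late endosomes and lysosomes, was at 8.49 and 10.3 CPM (0h), 10.4 and 11.2 (6h), 13.9 and 11.5 (12h), then 17.1 and 15.8 (24h). Both 24h libraries lay above all earlier ones. The log2 fold change against 0h was 0.20 ± 0.12 at 6h (adjusted p = 0.27), 0.43 ± 0.12 at 12h (adjusted p = 0.0024) and 0.80 ± 0.11 at 24h (adjusted p = 1.3e-07), or 1.74-fold. At 24h against 12h it rose by 0.37 ± 0.10 (adjusted p = 0.019). The 12h call was lost without 0h replicate 1 (adjusted p = 0.084) or 12h replicate 1 (adjusted p = 0.10), and that at 24h against 12h without 12h replicate 2 (adjusted p = 0.35) or 24h replicate 1 (adjusted p = 0.15), while the call at 24h against 0h remained in every fit that left out 1 library.

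Ctss (ENSMUSG00000038642; chromosome 3, 95526786 to 95556403, plus strand) encodes cathepsin S, a lysosomal protease that also trims the invariant chain of MHC class II. Its level was 6.28 and 6.26 CPM (0h), 5.82 and 5.31 (6h), 6.39 and 7.56 (12h), then 8.70 and 10.8 (24h). The rise was late, with 6h below 0h and 24h above every earlier library. At 24h the log2 fold change was 0.63 ± 0.14 against 0h (adjusted p = 0.00018), or 1.55-fold, and 0.48 ± 0.13 against 12h (adjusted p = 0.018), and at 12h against 0h it was 0.15 ± 0.14 (adjusted p = 0.41; 0.37 and 0.036 with the GC and length correction). The step from 12h was lost without 12h replicate 1 (adjusted p = 0.25) or 24h replicate 2 (adjusted p = 0.33).

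Lyz2 (ENSMUSG00000069516; chromosome 10, 117277331 to 117282321, minus strand) encodes lysozyme M, which cleaves bacterial cell walls and is made by monocytes, macrophages and granulocytes. Its RPKM was the highest of the 10 genes in every library, and its level was 88.9 and 95.1 CPM (0h), 73.7 and 79.9 (6h), 72.3 and 76.5 (12h), then 78.9 and 78.6 (24h). The 6 later libraries lay below both 0h libraries, with a log2 fold change against 0h of -0.26 ± 0.05 at 6h, -0.31 ± 0.05 at 12h and -0.23 ± 0.05 at 24h (adjusted p = 4e-04, 1.1e-05 and 0.00043). This fall depended on leaving GC content and length uncorrected: with a correction for them the values were -0.12, -0.10 and 0.028, and the calls were lost (adjusted p = 0.082, 0.085 and 0.64). Its neighbouring copy Lyz1 had at most 2 counts in a library.

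Mpeg1 (ENSMUSG00000046805; chromosome 19, 12460779 to 12465283, plus strand) encodes perforin-2, a pore-forming protein that attacks engulfed bacteria. It was at 4.37 and 4.92 CPM (0h), 3.34 and 3.30 (6h), 2.73 and 3.17 (12h), then 3.71 and 3.27 (24h). All later libraries lay below both 0h libraries. It fell by 0.66 ± 0.18 on the log2 scale at 12h against 0h (adjusted p = 0.0037), and was at -0.49 ± 0.18 at 6h (adjusted p = 0.055) and -0.41 ± 0.18 at 24h (adjusted p = 0.048). The 24h call was at the edge of the threshold. It was lost without any 1 of the 0h or 24h libraries (adjusted p = 0.053, 0.25, 0.055 and 0.21 without 0h replicate 1, 0h replicate 2, 24h replicate 1 and 24h replicate 2), with the replicate number as a block (adjusted p = 0.054), by DESeq2 (0.16), with library totals (0.095), with a stricter filter (0.054) and with the GC and length correction (0.081). The 12h call was lost without 0h replicate 2 (adjusted p = 0.054).

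Fn1 (ENSMUSG00000026193; chromosome 1, 71585520 to 71653200, minus strand) encodes fibronectin, an extracellular matrix protein that monocytes and macrophages, and also fibroblasts, secrete. It had 1 and 1 counts (0h), 0 and 2 (6h), 4 and 3 (12h), then 64 and 59 (24h). In CPM these were 0.0502 and 0.0460 (0h), 0 and 0.0786 (6h), 0.168 and 0.125 (12h), then 2.42 and 2.38 (24h). The level was thus near the limit of detection in all 6 libraries up to 12h and above it in both at 24h. The ratio of summed counts at 24h against 0h was 50.002 with a 95% counting interval of 13.6 to 418, and against 12h it was 16.4 with an interval of 7.71 to 41.6 (adjusted p = 4.2e-10 and 4.9e-08). Of the 10 genes, only Fn1 at 24h passed a test against a fold of 1.5, in 24h against 0h and in 24h against 12h. The 10 stromal and endothelial markers summed to 181 to 190 CPM at 24h, against 227 to 234 CPM at 0h. Nearly all of that came from Pecam1 (142 ± 3.85 CPM at 24h, against 184 ± 2.95 CPM at 0h, called lower) and Pdgfrb (43.4 ± 2.78 CPM, against 46.0 ± 2.45 CPM, not called). The other 8, with the collagen genes Col1a1, Col1a2 and Col3a1 among them, had at most 7 counts each over both 24h libraries, against at most 5 over both 0h libraries. Their part in the Fn1 result was not tested. An antisense gene, Apol7d, shares 292 of the 11685 exonic bases of Fn1 and had 0 counts in every library.

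**Figure D2:**
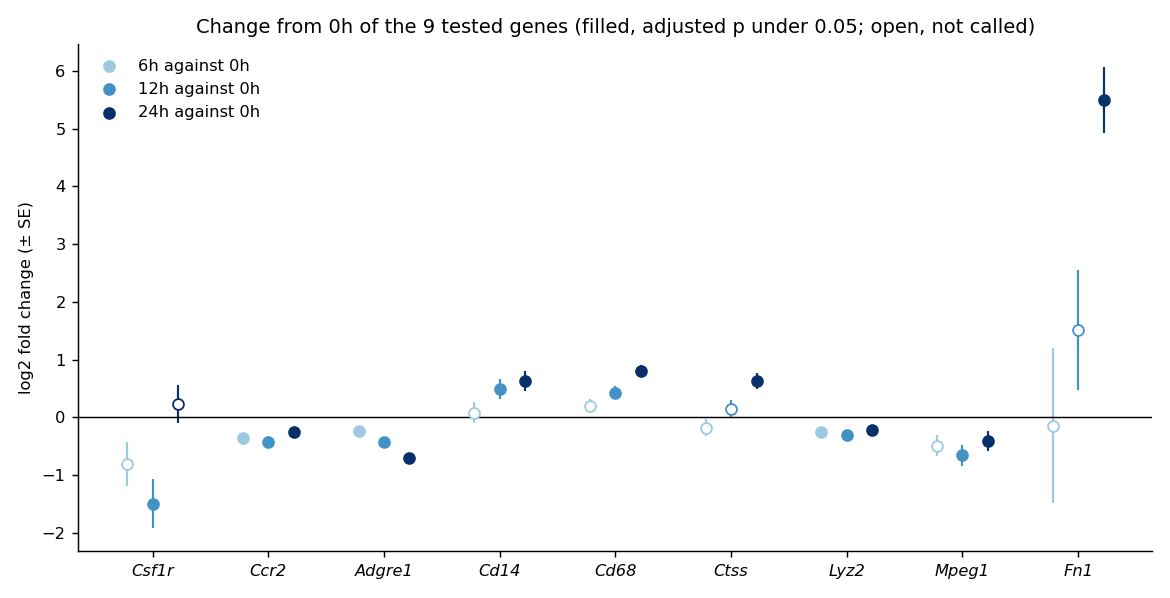
Log2 fold change against 0h (y axis) of the 9 tested genes at 6h, 12h and 24h, with bars of 1 SE, filled where the adjusted p was under 0.05. Fn1 at 24h (5.49, a fitted value that depends on few counts at 0h) stands far above the rest, Adgre1 goes further down at each time, and Csf1r is lowest at 12h (-1.49).

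**Figure D3:**
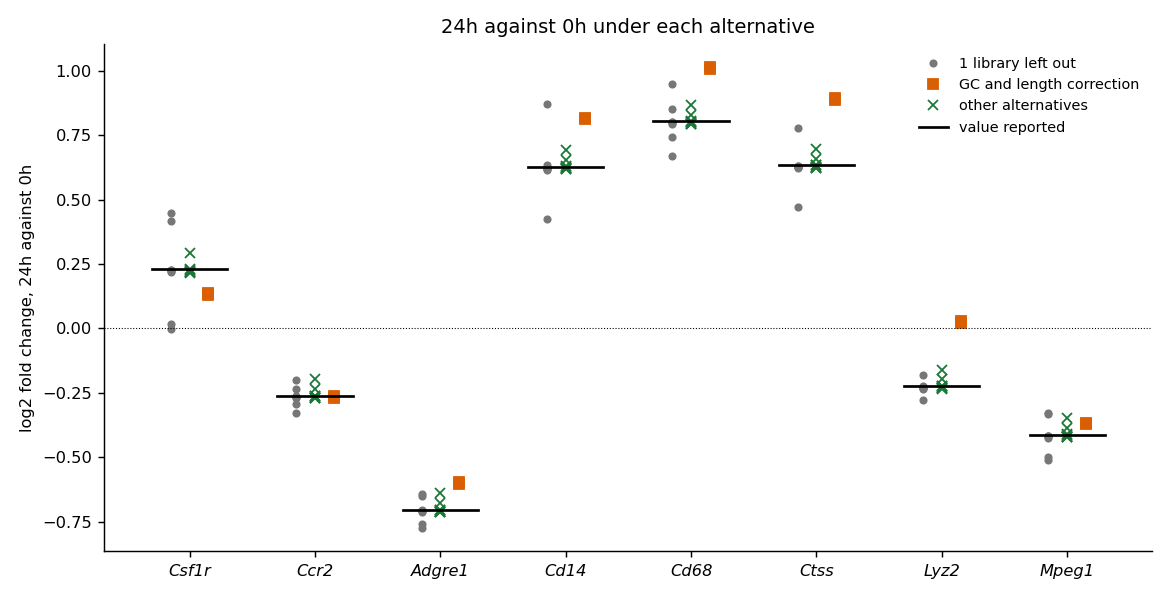
Log2 fold change at 24h against 0h (y axis) of 8 tested genes under each alternative (symbols), with the value reported as a black line; Fn1 is left out because of its scale. The called genes stay on their side of 0 except Lyz2, which is at 0.028 with the GC and length correction and at -0.23 as reported.

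Between 12h and 24h, Fn1, Csf1r, Ctss and Cd68 rose and Adgre1 fell. All genes but Adgre1 had both 24h libraries above both 12h libraries, 9 of 10, where 25.9% of all tested genes did (23.3% the other way). Among these, Cx3cr1 was not tested, with 0 and 1 counts at 12h, and Cd14, Lyz2, Mpeg1 and Ccr2 were not called. Of the 9 tested genes, 4 were called higher at 24h against 12h (3.41% of all tested genes were higher) and 1 lower (3.04% of all), where 6.46% of all were called either way. This count depended on the tool and the libraries: DESeq2 called 1 of them, Adgre1, and gave no adjusted p for another 2, and there were 3 calls on leaving out replicate 1 of 12h or either replicate of 24h. Over all genes, 921 calls with all libraries came to 373 and 386 on leaving out replicate 1 or 2 of 12h, and 449 on leaving out replicate 2 of 24h.

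Genes whose level followed the same course were sought for Cd68 and Adgre1, the called genes with the largest rise and fall at 24h once those averaging under 0 in log2 CPM (Csf1r and Fn1) were set aside. Over the 8 libraries, Pearson's r of log2 CPM with Cd68 was highest for Pgm2 (0.989), Ice2 (0.975), Thap2 (0.975), Spata2 (0.974) and Anapc5 (0.973). With Adgre1 it was highest for Urm1 (0.993), Hcls1 (0.992), Gtse1 (0.992), Rab2a (0.992) and Serpine2 (0.992). These are the top of 8772 protein-coding genes searched, with a log2 CPM of at least 3, and the 8 points share libraries and only 4 time points, so they describe a like course and no more.

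Ligands and binding partners of these proteins came to 18 genes, of which 12 were tested. At 24h against 0h, 5 were higher, 3 lower and 4 not called, beside 26.1% higher, 24.8% lower and 50.9% either way of all tested genes. The median log2 fold change was 0.20, beside 0.02 over all tested genes. Itga5, a subunit of the main fibronectin receptor, rose by 0.74 ± 0.05 to 99.97 ± 3.17 CPM at 24h, against 59.7 ± 0.925 CPM at 0h. The pattern receptor genes Tlr2 and Tlr4 rose by 1.01 ± 0.10 and 0.79 ± 0.08, and Lbp, which loads lipopolysaccharide onto CD14, by 0.56 ± 0.06. The adjusted p of these 4 genes lay between 5.5e-15 (Itga5) and 3.5e-10 (Lbp). Ly96, the gene of MD-2, was not called (0.38 ± 0.30, adjusted p = 0.29). The 3 genes called lower were Itgb3, an integrin subunit (-0.50 ± 0.13, adjusted p = 0.0015), Cst3, a cathepsin inhibitor (-0.24 ± 0.05, adjusted p = 3.6e-05), and Itgb1, the partner of Itga5 (-0.10 ± 0.04, adjusted p = 0.048). The CCR2 ligand genes Ccl7, Ccl8 and Ccl12 had 0 counts in every library. Csf1, the ligand gene of CSF1R, was at 0.25 ± 0.13 (adjusted p = 0.096).

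Lysosome and phagosome genes beyond the 10 numbered 21, of which 20 were tested, and their median log2 fold change at 24h against 0h was -0.07. Among them 5 were higher, 7 lower and 8 not called, beside 26.1% higher, 24.8% lower and 50.9% either way of all tested genes. Cybb, the catalytic subunit of the phagocyte NADPH oxidase, rose by 1.99 ± 0.17 to 9.63 ± 0.0803 CPM at 24h, against 2.42 ± 0.0197 CPM at 0h (adjusted p = 1.6e-12). Ncf1, the gene of a cytosolic subunit of that oxidase, rose by 0.28 ± 0.04 (adjusted p = 4e-07). Ctsz, the gene of another cathepsin, had -0.31 ± 0.04 (adjusted p = 1.1e-07).

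Transcription factors of the monocyte lineage had 13 of 16 genes tested, with a median log2 fold change of 0.23 at 24h against 0h. Among them 6 were higher, 2 lower and 5 not called, beside 26.1% higher, 24.8% lower and 50.9% either way of all tested genes. Nr4a1, needed for patrolling monocytes in mice, rose by 1.71 ± 0.13 to 13.03 ± 0.180 CPM at 24h, against 3.97 ± 0.280 CPM at 0h. Cebpb rose by 0.78 ± 0.06 and Tfeb, a regulator of lysosomal genes, by 0.72 ± 0.10. Tfec, a macrophage relative of Tfeb, fell by 0.97 ± 0.06 on the log2 scale to 46.9 ± 0.786 CPM, against 91.7 ± 1.47 CPM at 0h. The adjusted p of these genes lay between 4.1e-17 (Tfec) and 1.2e-07 (Tfeb), and Spi1, the gene of PU.1, was not called at -0.08 ± 0.04 (adjusted p = 0.11).

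Other monocyte genes numbered 24, of which 18 were tested, with a median log2 fold change of -0.14 at 24h against 0h. Among them 7 were higher, 9 lower and 2 not called, beside 26.1% higher, 24.8% lower and 50.9% either way of all tested genes. Itgal, an integrin subunit, rose by 0.69 ± 0.04, the proteoglycan gene Vcan by 0.99 ± 0.09, and Ly6c2, an antigen of classical monocytes with a close copy in Ly6c1 (4 counts over both 24h libraries), by 0.44 ± 0.04. Fcgr3, an Fc receptor gene, fell by 0.61 ± 0.04 on the log2 scale to 154 ± 8.81 CPM, against 235 ± 6.70 CPM at 0h. Here the adjusted p lay between 5.1e-16 (Itgal) and 4.6e-11 (Ly6c2).

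**Figure D4:**
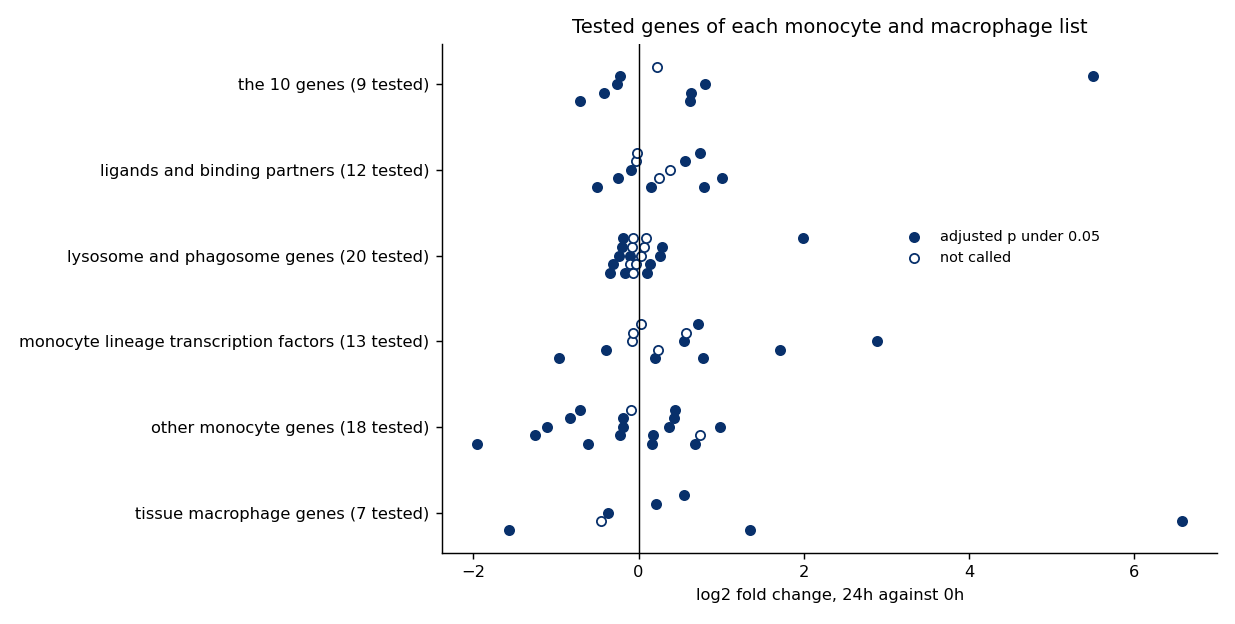
Log2 fold change at 24h against 0h (x axis) of each tested gene in the 10-gene set and 5 related lists, filled where the adjusted p was under 0.05, with vertical offsets for legibility only. Each list has genes on both sides of 0, and the points far to the right are Fn1 (5.49) and Cd5l (6.58), both fitted from few or 0 counts at 0h.

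Most tissue macrophage genes had too few counts to test. Of 26 such genes 7 were tested, with a median log2 fold change of 0.21 at 24h against 0h. Among the tested, 4 were higher, 2 lower and 1 not called, beside 26.1% higher, 24.8% lower and 50.9% either way of all tested genes. The summed level of the 26 was 61.7 to 66.1 CPM at 24h, against 58.5 to 59.0 CPM at 0h. C1qa, C1qc, Marco, Timd4 and Clec4f had 0 counts in every library. Cd5l, a secreted macrophage protein gene, summed to 26 counts at 24h, against 0 counts at 0h, and C1qb, a complement gene that was not tested, to 23 counts, against 0. Apoe rose by 0.55 ± 0.13 and Hmox1, which degrades haem, by 0.21 ± 0.07, while the iron exporter gene Slc40a1 was at -0.36 ± 0.10 (adjusted p = 0.00038, 0.015 and 0.0023).

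Markers of other cells were read in the same libraries, and their counts of calls at 24h against 0h stand beside 26.1% of all tested genes called higher, 24.8% lower and 50.9% either way. The summed level of 10 neutrophil genes was 151 to 152 CPM at 24h, against 107 to 115 CPM at 0h, with 7 of 9 tested members called higher and 2 lower, and their part in the changes of the 10 genes was not tested. Markers of T and NK cells summed to 20.9 to 21.0 CPM at 24h, against 11.6 to 11.9 CPM at 0h, almost all from Nkg7 (11.4 CPM at 24h, against 5.01 CPM at 0h) and Lck (9.41 CPM, against 6.62 CPM), while Cd3e, Cd3g and Ncr1 had 0 counts in every library. The B cell markers Ms4a1 and Pax5 were likewise at 0, and the B cell list summed to 14.9 to 16.7 CPM at 24h, against 24.0 to 24.2 CPM at 0h. Its 3 tested members went both ways, 2 called lower (Cd79b and Ighm) and 1 higher. The higher one, Cd79a, had a log2 fold change of 1.90, with 42 counts over both 24h libraries, against 9 over both 0h libraries. Mast cell and basophil markers summed to 103 to 106 CPM at 24h, against 132 to 133 CPM at 0h (3 of 4 tested lower), with Fcer1a, Prss34 and Tpsab1 at 0. Dendritic cell markers had 1 of 5 tested higher and 1 lower, the 3 tested erythroid markers had an adjusted p of 0.086 to 0.50, with summed levels of at most 3.24 CPM, megakaryocyte markers had 2 of 2 lower, and stromal and endothelial markers 1 of 2 lower (Pecam1).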

How the data were processed

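Bulk RNA sequencing of sorted leukaemia cells gave 8 libraries in 4 time points of 2. The authors deposited unnormalized counts by Ensembl gene ID. The submitters' processing notes list STAR, SAMtools 1.3, HTSeq 2.0.3 and the build mm10; for the annotation release and strand setting, the sources used here give nothing. The 5 summary rows that name no gene (10.8% to 14.3% of fragments) entered neither library sizes nor tests. Gene names, coordinates and exon lengths came from GENCODE M21 (mm10), which matched 46574 of 47069 IDs.

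Genes were kept with filterByExpr, scaled by TMM and tested in 1 quasi-likelihood fit of all 8 libraries (edgeR 4.0.16, R 4.3.3; 4 residual degrees of freedom), two-sided, with adjustment over 14263 genes. Counting intervals of 95% are exact. On simulated counts of 14263 genes, 82.5% of the genes changed 2-fold at 24h against 0h were called, and 5.44% of calls were false. The simulation gave every gene the same dispersion and changed 200 genes, at 24h only, so these rates need not hold for the real libraries. The 10 genes, the related lists, and the rules for naming genes (up to 4 genes a list with the smallest adjusted p at 24h against 0h; the 5 protein-coding genes most alike) were chosen with earlier results of these data known. Csf1, Spi1, Lyz1, Hmgxb3, Apol7d, Ly6c1, C1qb, Ly96, Itgb1, Itgb3, Cst3, the collagen genes and the genes at 0 were named outside that rule, and some genes it names are not reported here. Alternatives were DESeq2 1.42.0, other scalings and filters, a replicate block, fits of 4 libraries, 1 library left out at a time, a minimum fold of 1.5 in the test, and, chosen after seeing the data, a GC and length correction in 2 forms.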

Additional observations from a re-analysis of the deposited data

Results flagged for a closer look

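The share of fragments counted to no gene feature, which no comparison above uses, was 9.15% ± 0.167 at 24h, against 5.47% ± 0.316 at 0h (SD, n = 2 each). It stands out because it lies above the 0h level in both 24h libraries, and its part in the values of the 10 genes was not tested.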

How the results depend on the processing

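Of the single-gene values recomputed under the alternatives, 717 kept their direction and side of the threshold, 61 were no longer called, 9 became called, 6 that were not called changed sign and 2 reversed. The 2 were Lyz2 at 24h against 0h, at 0.028 and 0.022 with the 2 forms of the GC and length correction; the cause was not tested. Against a fold of 1.5, 0, 0, 1, 0 and 1 of the 9 genes were called at 6h, 12h and 24h against 0h, 12h against 6h and 24h against 12h (213, 600, 953, 85 and 41 of all genes), by construction a stricter test. DESeq2 called 0 at 12h against 6h and 1 at 24h against 12h, and over all genes 1668 at 6h against 0h, 1632 at 12h against 6h and 450 at 24h against 12h. At 12h against 6h library totals gave 0 and both GC and length corrections 3 (Cd14, Cd68 and Ctss, all higher), and at 24h against 12h the stricter filter gave 3 (it removes Csf1r and Fn1). With 1 library left out, the 9 genes had 2 to 3 calls at 6h, 4 to 7 at 12h and 6 to 8 at 24h against 0h, 0 to 1 at 12h against 6h and 3 to 5 at 24h against 12h. Over all genes these ranges were 1319 to 2715, 4627 to 6627, 5723 to 7589, 1293 to 3061 and 373 to 1256, with 1702 and 1319 at 6h against 0h without 0h replicate 1 and 0h replicate 2, and 1853 and 1293 at 12h against 6h without 12h replicate 1 and 12h replicate 2. A library left alone at its time was assumed to vary like the others. Library totals moved the share of higher calls over all genes to 69.9%, 65.3% and 62.7% at 6h, 12h and 24h against 0h, and 68.4% at 12h against 6h, from 53.2%, 50.6%, 51.3% and 52.6%, and no filter moved it to 41.4% at 24h against 12h, from 52.9%. Replicates share only a number: differences between replicates 1 and 2 correlated between times at -0.02 to 0.02, and the replicate block gave 3, 7, 7, 1 and 5 calls among the 9 genes (2495, 6116, 7160, 2811 and 836 over all), losing only Mpeg1 at 24h against 0h. Counting error limits Csf1r, Fn1 up to 12h and Cx3cr1.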
